A study of Mus musculus with 3 samples.

Results

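The CXC chemokines examined here were Cxcl1, Cxcl2, Cxcl3, Cxcl5, Cxcl9, Cxcl10, Cxcl11, Cxcl14 and Cxcl16, taken as every probe set that the platform annotation gives to one of these genes alone. These were 9 of the 18193 genes so represented, with 15 probe sets: 3 for Cxcl1, 2 each for Cxcl9, Cxcl11, Cxcl14 and Cxcl16, and 1 for each other gene. Transcript levels were measured on 3 Affymetrix mouse expression arrays, 1 per condition, in mouse bone marrow-derived dendritic cells (BMDCs). All were marrow cultures kept for 10 days with GM-CSF, a growth factor that drives myeloid cells, at 10 ng/ml. One culture received lipopolysaccharide (LPS) at 10 ng/ml with 100 µM 8-Br-cAMP for 3 h, one received LPS alone at the same dose and time, and one was unstimulated. The labels do not say whether animals were shared or pooled between cultures. LPS, from the outer membrane of Escherichia coli, is recognised by Tlr4. The other agent, 8-Br-cAMP, enters cells and stands in for cyclic AMP, a second messenger. No strain, genotype or age is given in the labels, and no array had 8-Br-cAMP without LPS.

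Chemokines are small secreted proteins that direct the movement of leukocytes. In CXC chemokines the first conserved cysteines are separated by one residue. Cxcl1, Cxcl2, Cxcl3 and Cxcl5 carry a glutamate-leucine-arginine (ELR) motif before them and draw neutrophils through the receptor Cxcr2. Cxcl9, Cxcl10 and Cxcl11 lack it, are induced by interferons and act through Cxcr3 on activated T cells and NK cells. Cxcl16 is made as a membrane protein, binds Cxcr6 and is shed by the protease Adam10, and Cxcl14 is made chiefly by epithelial and stromal cells. In myeloid cells NF-kB downstream of Tlr4 drives the ELR genes, and interferon beta made after Tlr4 activation adds to the interferon-inducible ones.

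Signals were scaled to a common trimmed mean, and signals under a floor of 32.5 were set to it. A gene was represented by its brightest probe set, and a log2 difference against an array under the floor is a lower bound, written as at least. With 1 array per condition no difference has a replicate check, no test was possible, and the effect of an agent and any other difference between 2 cultures cannot be told apart. As a yardstick, the scatter between the brightest probe sets of the same gene gave an error of 0.48 log2 units for 1 probe set's difference between LPS+8-Br-cAMP and LPS, and 0.45 between LPS and unstimulated. This is the scatter within arrays and not the spread between cultures.

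The LPS+8-Br-cAMP array stood apart from the others. Its deposited median signal was 19.8, against 33.4 for LPS and 42.6 for unstimulated cells. Xist, expressed from the inactive X chromosome of female cells, had a scaled signal of 1716 on it and was under the floor on both others. The Y-linked Eif2s3y was under the floor on it and had 272 with LPS and 352 unstimulated. The other Y-linked transcripts measured were also under the floor on it alone, by their brightest probe sets. By these transcripts the LPS+8-Br-cAMP culture was of female cells and the others of male cells. Donor sex and the analogue therefore cannot be told apart in any comparison with that array. Of the neutrophil markers 6 of 10 were at least 2-fold lower than with LPS and 0 higher, with summed scaled signals of 23772 with LPS+8-Br-cAMP, 44876 with LPS and 42534 unstimulated. B and plasma cell markers summed to 211, 3037 and 4958 in the same order. Of these, 3 of 6 were at least 2-fold lower than with LPS (Ighm, Igha and Jchain) and 0 higher, while Cd79b differed by 0.10. Dendritic cell markers were above the floor on every array, 10 of 10, and summed to 36112, 28430 and 24485. Macrophage markers were also above the floor on every array, and summed to 19429, 22660 and 23265 in the same order. In such bulk cultures fewer cells of a type and less RNA per cell cannot be told apart, and the part of these differences in the results below was not tested.

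LPS with 8-Br-cAMP, compared with LPS alone, split the family. Cxcl1, Cxcl5 and Cxcl14 were at least 2-fold higher with the analogue, Cxcl9 and Cxcl11 were at least 2-fold lower, and Cxcl2, Cxcl3, Cxcl10 and Cxcl16 differed by less. The calls of Cxcl1 and Cxcl11 rest on their brightest probe sets alone. Of 12572 genes measured in this comparison, 6.49% passed 2-fold upwards and 5.81% downwards, against 3 and 2 of the 9 chemokines. The median log2 difference of the members was -0.14, and that of all genes 0.05. LPS alone, compared with unstimulated cells, had 7 of the 9 at least 2-fold higher and 0 lower (6 higher without Cxcl5, whose call depends on the scaling and the floor), where 6.64% of 12283 genes were so much higher and 13.0% lower. The median of the members was 4.53, with 5 members entered at their lower bound, and that of all genes -0.21. Cxcl14 and Cxcl16 were the members under 2-fold in that comparison.

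**Figure D1:**
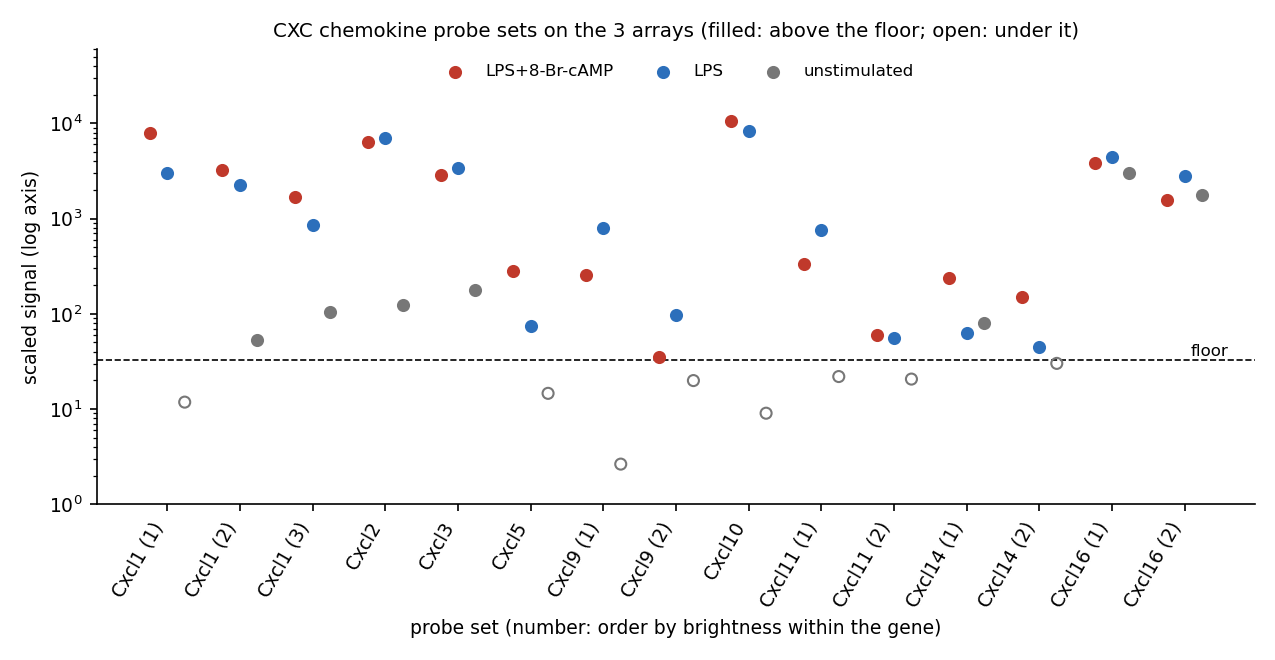
Scaled signal (log axis) of the 15 probe sets on the arrays of LPS+8-Br-cAMP, LPS and unstimulated cells, with 1 point per array and the floor of 32.5 as a dashed line. Signals with LPS lie far above those of unstimulated cells for Cxcl1, Cxcl2, Cxcl3 and Cxcl10, while Cxcl16 lies above 1500 on all 3 arrays and Cxcl14 is highest with LPS+8-Br-cAMP.

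Cxcl1, a main neutrophil attractant in mice, was higher with LPS by all 3 of its probe sets. Its brightest probe set read 7904 with LPS+8-Br-cAMP, 2997 with LPS and 11.8, under the floor, in unstimulated cells. It was 2.64-fold higher with the analogue than without it (log2 difference 1.399) and at least 92.1-fold higher with LPS than unstimulated. The second probe set of Cxcl1 read 3228, 2239 and 53.0, and the third 1704, 861 and 105, in the same order of conditions. Both were higher with the analogue than with LPS, by 0.53 and 0.98, short of 2-fold. They were higher with LPS than unstimulated by 5.40 and 3.04, less than the bound of the brightest probe set. In scaled signals all 3 probe sets therefore had the same order of arrays, with sizes from 1.44-fold to 2.64-fold for the analogue. The deposited signals of the second had the other order, 1982 with LPS+8-Br-cAMP and 2409 with LPS. That second probe set is the only one of the 3 with the plain suffix _at. The brightest is of type _s_at and the third of type _x_at.

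Cxcl5, another neutrophil attractant, had a scaled signal of 284 with LPS+8-Br-cAMP, 75.04 with LPS and 14.6, under the floor, in unstimulated cells. It was 3.78-fold higher with the analogue than with LPS alone (1.92), the 78th highest of 12572 differences. LPS alone was at least 2.31-fold above unstimulated (1.21), but this was under 2-fold with spike scaling (0.87) and in the signals as deposited (0.92). With the floor at the 75th percentile both arrays were under it. The difference of Cxcl5 with the analogue was 1.38 at that floor and 1.55 with a pseudocount. The signal of Cxcl5 was thus highest with both agents, and its single probe set gives no second reading.

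Cxcl2 and Cxcl3 did not share the higher signal of Cxcl1 and Cxcl5. Cxcl2 read 6333 with LPS+8-Br-cAMP, 6967 with LPS and 125 unstimulated, a log2 difference of -0.14 for the analogue and 5.80 for LPS. Cxcl3 read 2834 with LPS+8-Br-cAMP, 3411 with LPS and 180 unstimulated, with differences of -0.27 and 4.25. For both, the 2 LPS-treated arrays differed by less than the error of 1 probe set, and unstimulated cells were far lower. A ratio within an array is free of scaling factors, though not of an intensity-dependent method such as quantile normalization. Such ratios set the 4 ELR genes against each other. Between LPS+8-Br-cAMP and LPS, Cxcl5 gained 4.16-fold on Cxcl2, while Cxcl2 and Cxcl3 stayed within 1.09-fold of each other. Cxcl1 gained 2.902-fold on Cxcl2 by its brightest probe set, but 1.59-fold and 2.18-fold by its other probe sets.

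Promoter sequences (GRCm38.p6) were at hand for 6 of the 9 members, and not for Cxcl5, Cxcl11 and Cxcl16. The 3 ELR genes among them lie in one cluster on chromosome 5, with Cxcl15 between Cxcl3 and Cxcl1 and with Cxcl2 directly after Cxcl1. Their 250 bases before the annotated start are shown because these genes were all far higher with LPS but parted with the analogue. Capitals mark the NF-kB consensus and the core of the cAMP response element, TGACG, on either strand.
Cxcl1, GRCm38.p6 chr5:90890995-90891244, plus strand: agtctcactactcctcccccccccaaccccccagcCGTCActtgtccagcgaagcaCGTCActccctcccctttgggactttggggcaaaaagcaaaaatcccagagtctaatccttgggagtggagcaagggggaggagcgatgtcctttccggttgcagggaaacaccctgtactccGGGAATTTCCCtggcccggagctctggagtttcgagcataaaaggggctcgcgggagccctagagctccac
Cxcl2, GRCm38.p6 chr5:90903649-90903898, plus strand: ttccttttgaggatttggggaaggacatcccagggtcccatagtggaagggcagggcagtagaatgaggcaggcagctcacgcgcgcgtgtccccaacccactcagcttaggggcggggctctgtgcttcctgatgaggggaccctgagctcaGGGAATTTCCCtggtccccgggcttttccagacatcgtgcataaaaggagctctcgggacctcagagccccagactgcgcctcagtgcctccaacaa
Cxcl3, GRCm38.p6 chr5:90785851-90786100, plus strand: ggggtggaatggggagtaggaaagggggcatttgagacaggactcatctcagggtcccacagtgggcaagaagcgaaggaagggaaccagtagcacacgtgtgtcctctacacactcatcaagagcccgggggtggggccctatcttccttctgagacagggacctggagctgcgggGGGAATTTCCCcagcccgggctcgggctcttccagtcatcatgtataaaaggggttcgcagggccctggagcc

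All 3 promoters held the same 11 letters with the NF-kB consensus, which reads on both strands in overlapping frames, starting 71 bases before the start in Cxcl1, 97 in Cxcl2 and 73 in Cxcl3. Over all 32851 promoter windows of this length, 3.90% held that consensus, and 4 of the 6 chemokine promoters did. TGACG on either strand was found in Cxcl1 alone of the 6, at 2 places starting 215 and 194 bases before the start, and in 17.8% of all windows. The full element TGACGTCA was in 0 of the 6 and in 1.55% of all, and the C/EBP motif TTNNGCAA was in 0 of the 6 and in 9.56%. These are matches of letters, not binding sites.

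**Figure D2:**
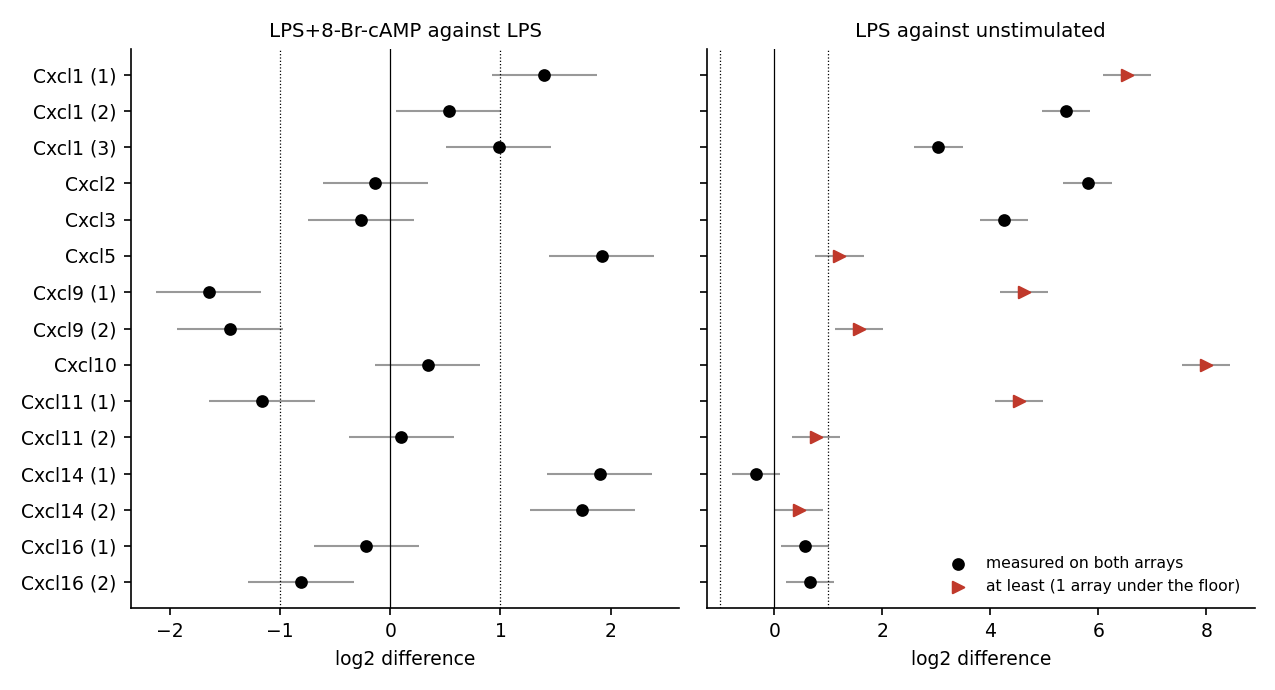
Log2 differences of the 15 probe sets for LPS+8-Br-cAMP against LPS (left) and LPS against unstimulated (right), with bars of 1 error of a probe set (0.48 and 0.45) and dotted lines at 2-fold. The 3 Cxcl1 probe sets, Cxcl5 and both Cxcl14 probe sets lie to the right of 0 in the left panel, and both Cxcl9 probe sets lie to the left of -1. Red triangles are lower bounds.

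The interferon-inducible ligands were all under the floor in unstimulated cells and parted with the analogue. Cxcl9, a ligand of Cxcr3 strongly induced by interferon gamma, read 256 with LPS+8-Br-cAMP, 805 with LPS and 2.64 unstimulated. It was 3.14-fold lower with the analogue than with LPS alone (-1.65), the 134th lowest of 12572 differences, and at least 24.7-fold higher with LPS than unstimulated. Its second probe set read 35.1, 96.3 and 19.9 in the same order, 2.75-fold lower with the analogue. Both probe sets of Cxcl9 were lower with LPS+8-Br-cAMP than with LPS. The second was at least 0.11 above unstimulated with LPS+8-Br-cAMP, less than the error of 1 probe set there (0.56), and its deposited signals had the other order, 21.5 with LPS+8-Br-cAMP and 26.1 unstimulated.

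Cxcl11, the third Cxcr3 ligand, read 335 with LPS+8-Br-cAMP, 753 with LPS and 21.9, under the floor, unstimulated. It was 2.25-fold lower with the analogue (-1.17) and at least 23.1-fold higher with LPS than unstimulated. Its dimmer probe set disagreed, reading 59.5 with LPS+8-Br-cAMP, 55.5 with LPS and 20.6 unstimulated, a difference of 0.10 for the analogue. That probe set was less than 2-fold above the floor on both LPS-treated arrays, so the lower signal of Cxcl11 rests on 1 probe set. The RefSeq table lists the Cxcl11 gene of its reference mouse as a transcribed pseudogene, and these values are of its RNA only.

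Cxcl10, which shares Cxcr3 with both, did not follow them. It read 10465 with LPS+8-Br-cAMP, 8269 with LPS and 9.04, under the floor, unstimulated. It was at least 254-fold higher with LPS than unstimulated, a bound that depends on the floor, and differed by 0.34 with the analogue, less than the error of 1 probe set. This small difference was -0.05 under quantile normalization and -0.47 in the signals as deposited, so it has no settled direction. Within the arrays, which removes a common scaling factor, Cxcl9 lost 3.98-fold against Cxcl10 between LPS+8-Br-cAMP and LPS, and 3.47-fold by its second probe set. Cxcl11 lost 2.84-fold by its brighter probe set, but 1.18-fold by the dimmer one. An intensity-dependent method is not removed so: under quantile normalization Cxcl9 differed by -1.49, Cxcl11 by -1.09 and Cxcl10 by -0.05. Cxcl10 stood at the 99.8th percentile of probe sets on both LPS-treated arrays.

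Cxcl9, Cxcl10 and Cxcl11 are neighbours on chromosome 5, with Art3 between Cxcl9 and Cxcl10. The windows of Cxcl9 and Cxcl10, shown because their signals parted with the analogue, carry in capitals the NF-kB consensus and the core of the interferon-stimulated element, GAAANNGAA, on either strand.
Cxcl9, GRCm38.p6 chr5:92328080-92328329, minus strand: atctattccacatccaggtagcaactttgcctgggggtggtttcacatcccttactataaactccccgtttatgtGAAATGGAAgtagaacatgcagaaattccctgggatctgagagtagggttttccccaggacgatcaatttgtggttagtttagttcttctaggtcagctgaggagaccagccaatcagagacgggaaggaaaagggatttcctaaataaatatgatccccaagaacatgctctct
Cxcl10, GRCm38.p6 chr5:92348890-92349139, minus strand: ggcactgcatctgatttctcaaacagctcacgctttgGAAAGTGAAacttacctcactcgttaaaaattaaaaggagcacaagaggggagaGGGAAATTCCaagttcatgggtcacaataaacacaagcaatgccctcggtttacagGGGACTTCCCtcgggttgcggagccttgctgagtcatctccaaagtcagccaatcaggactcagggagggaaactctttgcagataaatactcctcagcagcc

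The Cxcl10 window held the NF-kB consensus at 2 places, starting 159 and 103 bases before the start, and GAAANNGAA at 213. The Cxcl9 window held GAAANNGAA at 175 and no NF-kB consensus within these 250 bases. GAAANNGAA was in 7.13% of all windows and in 3 of the 6 chemokine windows, the third being Cxcl14. The AP-1 motif TGANTCA was in 1 of the 6, Cxcl10, and in 6.75% of all.

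The remaining members differed by less than 2-fold between LPS alone and unstimulated cells. Cxcl14, a chemokine of epithelial and stromal tissue, read 235 with LPS+8-Br-cAMP, 63.0 with LPS and 80.0 unstimulated, and 150, 44.8 and 30.2 by its second probe set. It was 3.73-fold higher with the analogue than with LPS (1.90, the 82nd highest of 12572), and 3.34-fold by the second probe set. On the LPS array both probe sets were less than 2-fold above the floor, so these sizes depend on it. The difference of the first was 1.11 with the floor at the 75th percentile and 1.49 with a pseudocount. The LPS and unstimulated arrays differed by -0.35 by the first probe set and at least 0.46 by the second, so the probe sets disagreed on the sign for LPS alone. Among stromal markers 2 of 7 measured were at least 2-fold higher with the analogue than with LPS, Dcn (1.30) and the chemokine Cxcl12 (1.19, counted again among the ligands below), and 1 was lower, Col1a1 (-1.26, but -0.07 by its second probe set). Their summed signals were 4140 with LPS+8-Br-cAMP, 3999 with LPS and 4773 unstimulated, and their part in the Cxcl14 signal was not tested.

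Cxcl16, the membrane-bound chemokine, read 3801 with LPS+8-Br-cAMP, 4424 with LPS and 2992 unstimulated, and 1585, 2784 and 1758 by its second probe set. It differed by -0.22 with the analogue (-0.81 by the second probe set) and by 0.56 with LPS (0.66). Its signal was above the 97th percentile of probe sets on all 3 arrays. The difference with LPS was below 2-fold, and its size depended on the scaling. It was 0.63 under median scaling, more than the error of 1 probe set. By contrast it was 0.27 under quantile normalization, 0.31 under cyclic loess, 0.23 under spike scaling and 0.28 as deposited, all less than that error.

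**Figure D3:**
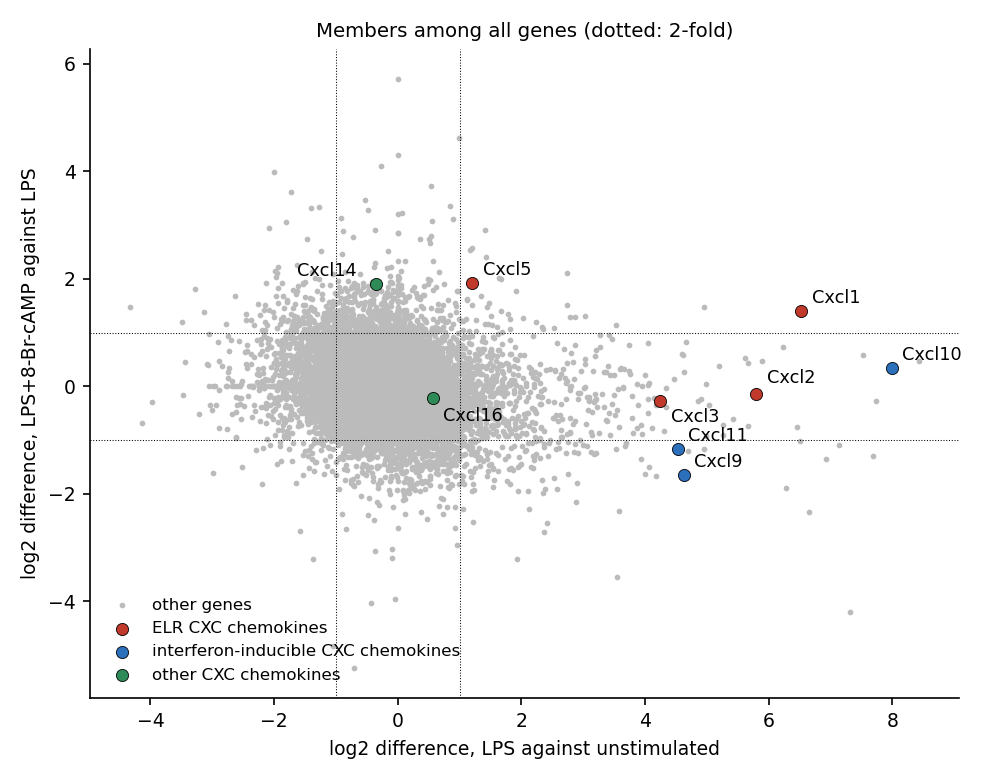
Log2 difference of LPS+8-Br-cAMP against LPS (vertical) plotted on that of LPS against unstimulated (horizontal) for all measured genes in grey, with the 9 members in colour by group and dotted lines at 2-fold. Differences against an array under the floor are plotted at their lower bound. The LPS array enters both axes, so their relation across genes is not a result.

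Set against unstimulated cells, LPS+8-Br-cAMP had 8 of the 9 members at least 2-fold higher and 0 lower, with Cxcl16 at 0.35. Of 12793 genes measured, 9.36% were at least 2-fold higher and 15.8% lower, and the median was 3.36 for the members and -0.12 for all genes. With the second brightest probe sets the count was 6. Cxcl10 was at least 322-fold higher. Cxcl1 was at least 243-fold higher by its brightest probe set and 61.0-fold by its second, which was above the floor on all arrays. Cxcl9 and Cxcl11 were at least 7.88-fold and 10.3-fold higher than in unstimulated cells, but at least 1.08-fold and 1.83-fold by their second probe sets. This comparison shares its arrays with both others. Cxcl14 was 2.94-fold higher (1.56), but under 2-fold in the signals as deposited (0.46).

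Under 6 scalings, the log2 difference of LPS+8-Br-cAMP against LPS ran from 1.11 to 2.05 for Cxcl5, from 1.09 to 2.04 for Cxcl14, from -2.46 to -1.49 for Cxcl9 and from -1.98 to -1.03 for Cxcl11. For Cxcl1 it ran from 0.59 to 1.53, under 2-fold only in the signals as deposited, which keep the dimness of the LPS+8-Br-cAMP array. Cxcl2 (-0.95 to -0.0022), Cxcl3 (-1.08 to -0.13) and Cxcl16 (-1.03 to -0.08) stayed below 0, but past 2-fold only for Cxcl3 and Cxcl16 as deposited.

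**Figure D4:**
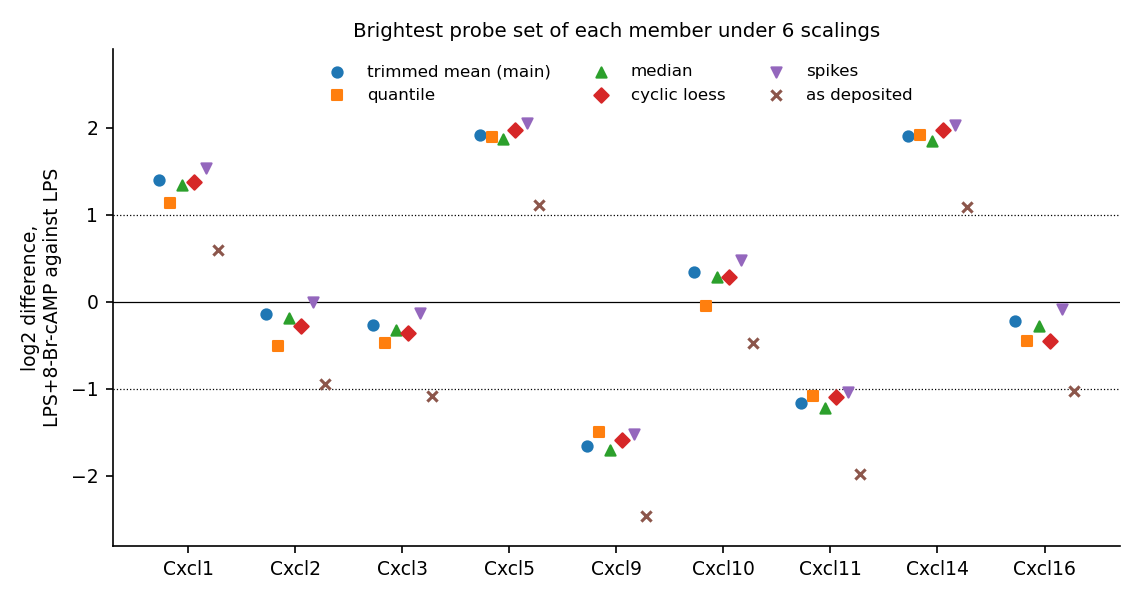
Log2 difference of LPS+8-Br-cAMP against LPS for the brightest probe set of each member under 6 scalings of the arrays, 1 symbol per scaling, with dotted lines at 2-fold. Cxcl5 and Cxcl14 lie above 1 and Cxcl9 and Cxcl11 below -1 under all 6, and Cxcl10 lies on both sides of 0.

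Other CXC ligands gave 1 gene higher and 1 lower with the analogue. Of the 6 looked at, Cxcl15 and Cxcl17 were under the floor on all arrays. Cxcl12, the ligand of Cxcr4, read 183 with LPS+8-Br-cAMP, 80.2 with LPS and 97.1 unstimulated, 2.29-fold higher with the analogue than with LPS. Ppbp, a platelet ELR chemokine that lies next to Cxcl5, read 805 with LPS+8-Br-cAMP, 2319 with LPS and 1772 unstimulated, 2.88-fold lower.

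Among 7 receptors of CXC ligands, 1 was at least 2-fold higher with the analogue than with LPS and 0 were lower. Ackr3, a scavenging receptor for Cxcl12 and Cxcl11, read 519 with LPS+8-Br-cAMP, 23.2, under the floor, with LPS and 130 unstimulated, at least 15.9-fold higher with the analogue than with LPS. LPS alone had Ackr3 at least 4.01-fold below unstimulated. Cxcr4 read 37.0, 59.4 and 1048 in the same order, 17.6-fold lower with LPS than unstimulated. The receptors of the members were dim: Cxcr2, of the ELR ligands, read 12.7, under the floor, with LPS+8-Br-cAMP, 42.2 with LPS and 76.2 unstimulated. Cxcr3 read 72.4, 47.4 and 43.5, and Cxcr6 read 38.0, 21.6 (under the floor) and 50.1.

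The genes of the NF-kB pathway were mostly higher with LPS and, apart from Rel, differed by less than 2-fold with the analogue. Of 12 measured, 9 were at least 2-fold higher with LPS than unstimulated and 0 lower (median 1.74), led by Nfkbiz, an atypical nuclear IkB protein (4.05), the inhibitor Tnfaip3 (3.74), the subunit gene Nfkb2 (2.97, but 0.69 by its second probe set) and Nfkbie (2.61). With LPS+8-Br-cAMP against LPS 1 was at least 2-fold higher, the subunit Rel (1.07), and 0 were lower (median 0.01). Tnfaip3 (0.77, and 0.97 by its second probe set) and Nfkbia (0.68, and 0.51) were higher by more than the error of 1 probe set. The lowest was Ikbkb (-0.22). Nfkbiz read 2453 with LPS+8-Br-cAMP, 2418 with LPS and 146 unstimulated, close to level between the LPS-treated arrays.

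In the interferon pathway, LPS against unstimulated gave 8 of 17 genes past 2-fold upwards and 1 downwards (median 0.99), led by Irf7 (3.997), Irf1 (3.06), Stat2 (2.91) and Ifnb1 (2.75). The lower one was Ifngr1, a receptor chain for interferon gamma (-2.46). With LPS+8-Br-cAMP against LPS 1 of 16 was higher, Ifngr1 (1.35), and 4 were lower (median -0.07). The lower ones were Ifnb1, which encodes interferon beta (-1.64), the kinase Tyk2 (-1.56, but 1.504 by its second probe set) and the transcription factors Irf8 (-1.30) and Irf1 (-1.10). Ifnb1 read 108 with LPS+8-Br-cAMP, 337 with LPS and 50.02 unstimulated, and Irf1 read 1801, 3870 and 463. Both had the order of arrays of Cxcl9 and of the brighter Cxcl11 probe set, but not that of Cxcl10. The same order was seen outside the interferon-inducible ligands, for Cxcl2, Cxcl3 and the brighter Cxcl16 probe set. Their differences with the analogue were less than the error of 1 probe set. A link of Ifnb1 or Irf1 to any of these ligands was not tested. Stat2 (-0.13) and Irf7 (0.20) differed little with the analogue.

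**Figure D5:**
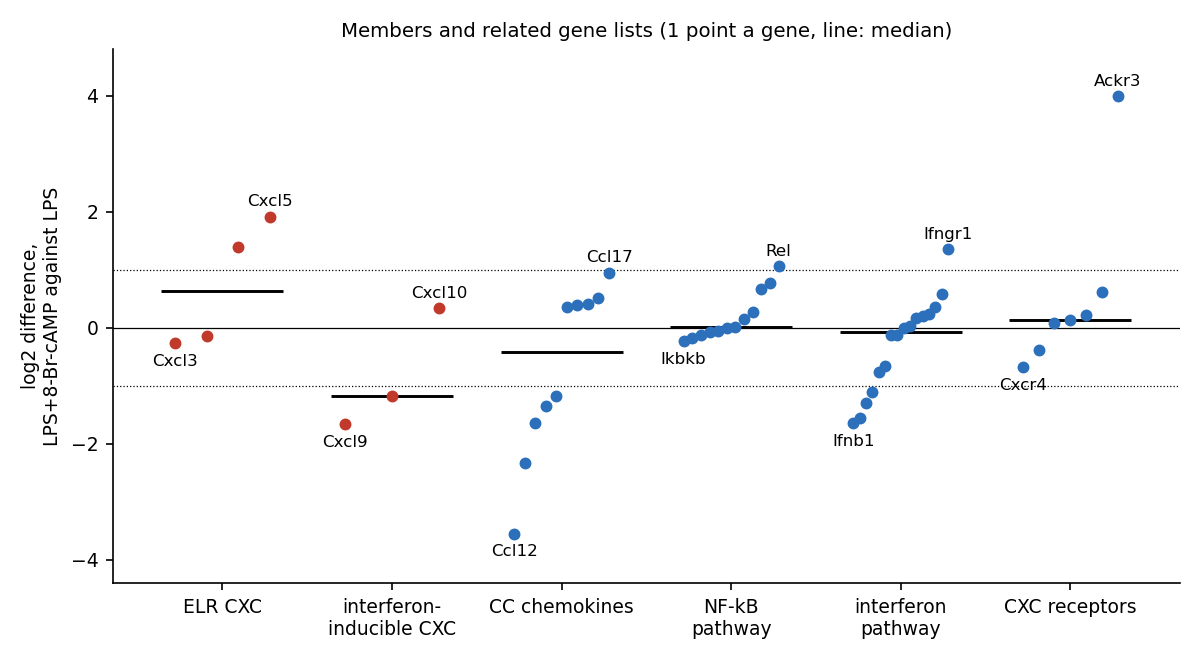
Log2 difference of LPS+8-Br-cAMP against LPS for the measured genes of 6 lists, 1 point per gene with its lowest and highest named, the median as a line and 2-fold dotted. The ELR ligands lie between -0.27 and 1.92 and the interferon-inducible ligands between -1.65 and 0.34. Differences against an array under the floor (Ackr1, Ackr3, Cxcr2, Cxcr6, Ccl12) are lower bounds.

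Factors of messenger RNA decay and stability, which set how long ELR transcripts last, had 0 of 9 past 2-fold between LPS+8-Br-cAMP and LPS (median -0.30). Zfp36, which destabilises AU-rich transcripts, differed by -0.30. With LPS against unstimulated 3 were higher, Zc3h12a (3.41), Arid5a (2.87) and Zfp36 (1.69), and 2 lower, Zfp36l2 (-2.76) and Zfp36l1 (-1.66). Proteases that cleave or shed CXC ligands had 3 of 10 at least 2-fold lower with the analogue and 0 higher (median -0.43): the aminopeptidase Anpep (-1.81), the sheddase Adam17 (-1.46) and Mmp2 (-1.44). Adam10, which sheds Cxcl16, differed by -0.01. With LPS against unstimulated 1 was higher, Mmp14 (1.49), and 1 lower, Mmp9 (-1.10).

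CREB and AP-1 factors, through which cAMP acts on transcription, had 5 of 13 at least 2-fold higher and 2 lower with the analogue (median 0.23). Crem (4.10), Fos (2.89), Fosl2 (2.21, but 0.79 by its second probe set) and Crtc3 (1.38) were among the higher ones, and Jun (-1.77, but -0.27 by its second probe set) and Atf3 (-1.58) were lower. With LPS against unstimulated 2 were higher, Atf3 (1.63) and Junb (1.06), and Crtc3 was lower (-2.02). By the brightest probe sets, the same order of arrays as for Cxcl14 was seen for Crem, at 1983, 116 and 140. Both were high with the analogue and near level between the others. By their second probe sets LPS was above unstimulated, by at least 0.46 for Cxcl14 and 0.64 for Crem. The order by the brightest probe sets was also that of Fos, Fosl2, Cxcl12 and Ackr3, so it was not particular to Crem. A link of Cxcl14 to any of these genes was not tested.

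Of the CC chemokines set beside them, 5 of 10 measured were at least 2-fold lower with the analogue and 0 higher (median -0.41), and 8 of 10 were at least 2-fold higher with LPS. Those with the largest differences were Ccl12 (at least 11.7-fold lower), Ccl3 (-2.33) and Ccl2 (-1.63). The CXC family had 3 higher and 2 lower of 9. The difference between the families was not tested.

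The genes with the pattern nearest to each member were found by the Euclidean distance over the differences of LPS against unstimulated and LPS+8-Br-cAMP against LPS, among genes above the floor on the same arrays. Such a pattern has 3 arrays and no replicates. For Cxcl1, Cxcl5, Cxcl9, Cxcl10 and Cxcl11 and their neighbours the difference with LPS is a bound set by the floor, so the distances depend on it and on the probe set. The nearest to Cxcl9 were Iigp1 (0.45), Cxcl11 (0.49) and Mir155hg (0.88), and the nearest to Cxcl11 were Iigp1 (0.16), Mir155hg (0.41) and Cxcl9. Cxcl10 lay nearest to Rsad2 (0.46), Il6 (0.52) and Ifit1 (0.66). Listed for the brightest probe set of Cxcl1 were Il6 (1.29), Ifit1bl1 (1.68) and Cxcl10 (1.81). Cxcl2 lay nearest to Ptgs2 (0.60), Acod1 (0.62) and Usp18 (0.69), and Cxcl3 to Irgm1 (0.12), Slfn8 (0.15) and Ifi209 (0.20). The nearest to Cxcl5 were Car4 (0.27), Fst (0.44) and Saa1 (0.48). Cxcl14 lay nearest to Antxr2 (0.04), Trpm6 (0.08) and Igf2bp3 (0.15), and Cxcl16 to Ikbkb, Dcaf13 and Oas1e (0.02 each).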

How the data were processed

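Biotin-labelled cRNA from total RNA was put on 1 array per condition, per the labels' protocols. The deposited intensity of each probe set is linear. The submitters' processing notes name MAS5, while its version, target value and settings are unstated there. Of 45101 probe sets, 64 controls were left out, 34945 had 1 gene in the platform annotation and 932 several. Identifiers of 99.4% of the single-gene probe sets were found in the RefSeq table, which changed 0 symbols.

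The 2% trimmed means of the deposited intensities were 63.2 (LPS+8-Br-cAMP), 111 (LPS) and 135 (unstimulated), and factors of 1.63, 0.929 and 0.763 brought them to their average. The floor, 32.5, was the highest array median after scaling. Genes counted as measured in a comparison when above it on at least 1 of its arrays, and as higher or lower at 2-fold. With 1 array per condition nothing was tested, and this number of arrays limits precision. The error of 1 probe set is the SD of the difference between the log2 differences of a gene's brightest probe sets, divided by the square root of 2, from 3799 genes between LPS+8-Br-cAMP and LPS, and 4029 between LPS and unstimulated. The steps were tested on simulated data.

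All members and all their probe sets are named, with up to 4 genes of each list past 2-fold, some genes listed by name in the rule and the 3 genes nearest to each member. Xist, Eif2s3y, Dcn, Col1a1 and the B, plasma and dendritic cell and macrophage markers given were picked after their values were seen. Unnamed transcripts were passed over. The members, lists and rules were chosen with earlier results of these data known. Marker lists of macrophages, eosinophils, T and NK cells, mast cells and endothelial cells were also run, and had 1 of 7, 2 of 3, 0 of 3, 1 of 3 and 0 of 4 measured genes at least 2-fold lower with LPS+8-Br-cAMP than with LPS, and 0 higher. Python 3.11.15, pandas 2.3.3, matplotlib 3.10.9 and limma 3.58.1 (cyclic loess) were used. Alternatives were other scalings, floors, a pseudocount, other choices among probe sets and thresholds of 1.5-fold and 3-fold.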

Additional observations from a re-analysis of the deposited data

How the results depend on the processing

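For LPS+8-Br-cAMP against LPS, 7 of the 9 members kept their sign under all 11 alternatives that give a difference, and 5 kept their side of 2-fold. The number at least 2-fold lower was 2, but 4 in the signals as deposited, and 1 with the mean over probe sets, with the second brightest probe set and at 3-fold. The number at least 2-fold higher was 3, but 2 without Cxcl1 as deposited (0.59), with the mean over probe sets (0.97), and with the second brightest or only _at probe sets (0.53 each), and 2 at 3-fold. The median of the members was -0.95 in the signals as deposited. Cxcl11 reversed by its second brightest probe set, at 0.10. For LPS against unstimulated, 7 members were at least 2-fold higher, but 6 under spike scaling, as deposited, with a floor at the 75th percentile, with the second brightest probe set and at 3-fold. The median of the members was 5.10 with a floor at the 25th percentile, 4.02 with a pseudocount, 3.10 with the mean over probe sets and 1.56 with the second brightest probe set. For LPS+8-Br-cAMP against unstimulated, 8 were at least 2-fold higher, but 7 as deposited, without Cxcl14 (0.46), 7 at 3-fold and 6 with the second brightest probe set. The median was 2.27 in the signals as deposited, 4.28 with a floor at the 25th percentile and 1.62 at the 75th. The floor sets the size of every bound. The cause of the other shifts was not tested, except that the signals as deposited keep the dimmer LPS+8-Br-cAMP array, on which the spiked-in control transcripts read 0.519 of their LPS value. The median of all genes was 0.05 for LPS+8-Br-cAMP against LPS, but 0.16 under spike scaling and -0.65 as deposited. Of genes past 2-fold in that comparison 52.8% were higher, 66.4% under spike scaling and 3.13% as deposited. For LPS against unstimulated that share was 33.8%, with 45.7% under cyclic loess, 15.7% under spike scaling and 17.5% as deposited, and the median of all genes was -0.21, with -0.10, -0.51 and -0.47. For LPS+8-Br-cAMP against unstimulated it was 37.3%, with 48.6%, 24.5% and 4.46% under the same alternatives, and the median was -0.12, with -0.01, -0.32 and -1.08. No paired analysis was possible because each condition had 1 array, and no array could be left out.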
